A study of Ovis aries with 12 samples.

Results

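The later interval of the time course compared loin muscle of 4 lambs aged 30 days with loin muscle of 4 lambs aged 20 days. These are the 8 arrays titled with those ages, out of 12 in the series, and each stands for 1 lamb. At each age 2 lambs were callipyge (genotype +/CLPG) and 2 were normal (+/+), so genotype is balanced between the ages. The remaining 4 arrays, from 2 callipyge and 2 normal lambs of 10 days, added to the estimate of the spread and are given as a description. All lambs were nursing, total RNA came from longissimus dorsi, the muscle along the spine, and no treatment other than age and genotype is labelled. Nothing in the labels states litter, sex or breed. The labels name the replicates as biological, so each p-value measures the spread between lambs. Each sample is bulk tissue, in which fewer cells of a type and less RNA per cell cannot be told apart.

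Callipyge is a muscle overgrowth of the loin and hindquarters that sets in during the first weeks of life, in lambs that inherit the mutation from the father. Skeletal muscle in the weeks after birth is also changing its energy supply. Mitochondria make most ATP through the respiratory chain, in which complexes I to IV pass electrons to oxygen and pump protons, and ATP synthase uses the proton gradient. Glycolysis supplies ATP quickly in fast fibres, which dominate the loin. Ribosomes, whose proteins are encoded by some of the most abundant mRNAs of any cell, set the capacity for protein synthesis in a growing muscle.

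Few single genes could be called between the ages. Of 12008 probe sets tested, 1 passed an adjusted p of 0.05 in limma with Benjamini-Hochberg adjustment, which is 0.00833% of those tested, and that probe set has no gene symbol. Genes of the respiratory chain and of the cytosolic ribosome stood lower at 30 days than at 20 days in nearly every measured member, by a median of log2 -0.35 in each list, while the median of all tested probe sets was 0.02. No member passed the threshold alone. The 8 named genes with the smallest p for a lower level all belong to the respiratory chain or its assembly, at 1.44-fold to 1.79-fold lower. On the higher side the estimates were led by PFKFB3, which makes a signal that drives glycolysis, at 3.07-fold.

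Levels are log2 of the scaled array intensity plus 16, and a difference on this scale understates the change of dim genes. Differences are 30 days minus 20 days, averaged over callipyge and normal lambs, so that a negative value means a lower level at 30 days. Before scaling, the trimmed mean was 60.3 to 94.3 on the 20 day arrays and 76.4 to 105.7 on the 30 day arrays. It differed by log2 0.16 between the ages (two-sided exact permutation of the ages within genotype, p = 0.333, adjusted p = 0.778 over 10 measures of the arrays). That test has 36 relabelings and cannot give a p below 0.0556. The 3' minus 5' signal of GAPDH, a measure of RNA integrity, differed by -0.03 (exact p = 0.889, adjusted 0.944) and that of actin by -0.09 (exact p = 0.278, adjusted 0.778). Callipyge 30 day replicate 2 and normal 30 day replicate 2 had the lowest mean correlation with the other arrays, at 0.953 and 0.951, across probe sets that are not independent. Results are therefore also given without both of them where they move.

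The defining genes of skeletal muscle were bright in every group. CKM, the muscle creatine kinase, averaged 13.54 at 20 days and 13.37 at 30 days, and TNNC2, a fast troponin, 13.34 and 13.20. Markers of other cells ranged from bright to dim, and detection calls were not used to tell dim from absent. The fibroblast gene COL3A1, at 12.27 and 12.19, stood above the muscle gene DES, at 11.92 and 11.87. The smooth muscle gene ACTA2 averaged 10.79 and 10.97. The leptin gene LEP, the adiponectin gene ADIPOQ and the leukocyte gene PTPRC averaged 4.22, 4.93 and 4.61 at 20 days and 4.42, 5.36 and 4.70 at 30 days. All 3 were under the brightness limit of 5.25 over the 12 arrays and were not tested, although ADIPOQ stood above it at 30 days. Linear intensities summed over each list's genes with a probe set, untested dim ones included, overlapped between the ages. The 13 adipocyte genes summed to 490 to 539 at 20 days and 469 to 720 at 30 days. The 17 endothelial and smooth muscle genes summed to 4028 to 4716 and 3484 to 6167. The 28 immune genes summed to 594 to 922 and 689 to 795, and the 14 fibroblast genes to 12747 to 13965 and 10420 to 16047. The 9 erythroid genes summed to 274 to 494 and 273 to 456. For the 9 nerve and Schwann cell genes the sums were 238 to 353 and 238 to 285, and for the 8 muscle identity genes 63324 to 67436 and 53981 to 68429. The lowest exact p for the mean log2 level of a list's tested members was 0.111, for the 7 tested adipocyte genes. Their mean was higher by log2 0.18 at 30 days (adjusted p = 0.778).

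The probe set that passed rose 2.10-fold. It read 6.72 and 6.50 in the callipyge lambs of 20 days and 7.01 and 6.74 in the normal lambs. At 30 days it read 7.97 and 8.13 in callipyge lambs and 7.48 and 7.69 in normal lambs, so the ages did not overlap. The means were 6.74 ± 0.21 (SD, n = 4) and 7.82 ± 0.29, a difference of log2 1.07 ± 0.14 (SE, limma adjusted p = 0.0441), with 1.44 in callipyge and 0.71 in normal lambs. It remained past the threshold in 6 of 26 alternatives, 1 of them the looser threshold of 0.10, and in none of the 12 fits that left out 1 array, with adjusted p between 0.0203 and 0.246 over all of them. At an adjusted p of 0.10 there were 8 probe sets, 3 higher and 5 lower at 30 days.

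Without adjustment, 1080 probe sets (8.99%) had p under 0.05, where 600.4 would be the count if no probe set differed. Of these, 585 (4.87%) were lower and 495 (4.12%) were higher at 30 days. In 328 probe sets (2.73%) all 4 lambs of 30 days lay below all 4 of 20 days, and in 269 (2.24%) they lay above. The balance differed with brightness. Among the 1201 brightest probe sets, the top of 10 classes of equal size, 160 (13.3%) lay wholly lower at 30 days and 17 (1.42%) wholly higher, and 67.1% of estimates were below 0 against 46% of all. The median of that class was log2 -0.09, against 0.03 to 0.05 in the 8 dimmest classes. Quantile normalization, which gives every array the same distribution, took it to -0.01. On the main scale the 99th percentile of the tested probe sets was 12.08 to 12.17 on the arrays of 20 days and 11.83 to 11.95 on those of 30 days.

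**Figure D1:**
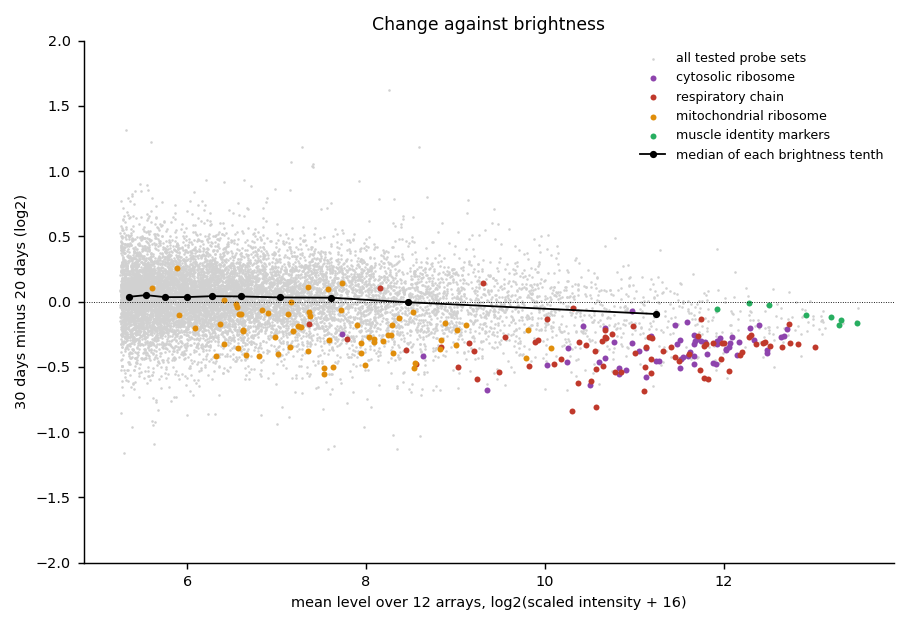
Difference between 30 and 20 days (vertical axis, log2) against mean level over the 12 arrays (horizontal axis, log2 of scaled intensity plus 16) for 12008 probe sets in grey, with 4 gene lists in colour and the median of each of 10 brightness classes in black. The black line runs between 0.03 and 0.05 over the 8 dimmest classes and ends at -0.09, and most coloured points of the respiratory chain and cytosolic ribosome lie below it.

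Among subunits of ATP synthase, 15 of 15 tested genes had estimates below 0. On the lower side 14 had unadjusted p under 0.05, against 4.87% of all probe sets. In 14 (93.3%) the ages did not overlap, against 2.73% of all probe sets and 13.3% of the 1201 brightest. ATP5MC1 encodes the ring subunit that turns as protons pass. It read 11.92 and 12.02 in callipyge and 12.10 and 12.08 in normal lambs of 20 days. The lambs of 30 days read 11.54 and 11.38 in callipyge and 11.42 and 11.41 in normal. Every lamb of 30 days lay below every lamb of 20 days, by log2 -0.59 ± 0.09 (SE, 1.51-fold lower, adjusted p = 0.0864). ATP5F1E, the epsilon subunit of the central stalk, went from 12.31, 12.09, 12.34 and 12.39 (callipyge then normal) to 11.87, 11.82, 11.62 and 11.71. Its difference was -0.53 ± 0.09 (adjusted p = 0.0864), again with no overlap.

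ATP5MF, a membrane subunit of the same enzyme, read 10.36 in both callipyge lambs of 20 days and 10.64 and 10.70 in the normal ones. At 30 days it read 10.13 in both callipyge lambs and 9.54 and 9.77 in the normal ones. The ages did not overlap, and the difference of -0.62 ± 0.10 (adjusted p = 0.0871) was made up of -0.23 in callipyge and -1.01 in normal lambs. ATP5PD, a subunit of the peripheral stalk, was split alike, at -0.23 and -0.86, with a mean of -0.55 ± 0.10 (adjusted p = 0.110). Its lambs of 20 days read 11.19 and 11.15 in callipyge and 11.38 and 11.48 in normal, and those of 30 days 11.01 and 10.85, and 10.42 and 10.71. The smallest difference among the 15 subunits was -0.17.

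Of complex I, the entry point for electrons from NADH, 34 of 35 tested genes lay below 0, with a median of -0.39. In 16 (45.7%) the ages did not overlap, against 2.73% of all probe sets and 13.3% of the 1201 brightest. NDUFC2, an accessory subunit, read 10.96 and 10.48 in callipyge and 10.40 and 10.54 in normal lambs of 20 days. It read 10.07 and 9.73, and 9.47 and 9.77, at 30 days. This was the widest gap in the respiratory chain list, -0.84 ± 0.14 (1.79-fold lower, adjusted p = 0.0871), and was close in callipyge (-0.82) and normal lambs (-0.85). NDUFB10, of the membrane arm, went from 11.01, 11.34, 11.50 and 11.54 to 10.77, 10.37, 10.78 and 10.74, a difference of -0.68 ± 0.13 (adjusted p = 0.110). NDUFV2, a subunit of the NADH-oxidising module, had -0.45 ± 0.09 and NDUFB9 had -0.61 ± 0.13 (both adjusted p = 0.110), and neither overlapped between the ages. The exception was NDUFS5, at 0.14.

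Complex II, which is shared with the TCA cycle, had all 4 subunits below 0, from SDHC at -0.35 ± 0.12 (adjusted p = 0.350) to SDHD at -0.14 ± 0.11 (adjusted p = 0.799), which was -0.02 without the 30 day replicate 2 arrays. Complex III with cytochrome c had 9 of 9 below 0 and a median of -0.32. In 5 (55.6%) the ages did not overlap, against 2.73% of all probe sets and 13.3% of the 1201 brightest. UQCRH, the hinge protein that holds cytochrome c1, read 10.41 and 10.92 in callipyge and 10.94 and 10.87 in normal lambs of 20 days. It read 9.81 and 9.64, and 10.11 and 10.33, at 30 days. All 4 older lambs were lower, by -0.81 ± 0.13 (1.75-fold, adjusted p = 0.0864). CYC1, cytochrome c1 itself, had -0.59 ± 0.16 (adjusted p = 0.220), and callipyge 30 day replicate 2 was its lowest lamb at 10.84.

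Complex IV, which hands electrons to oxygen, had 11 of 12 below 0 with a median of -0.32. In 5 (41.7%) the ages did not overlap, against 2.73% of all probe sets and 13.3% of the 1201 brightest. COX4I1 averaged 12.35 at 20 days and 11.97 at 30 days (-0.38 ± 0.09, adjusted p = 0.174). COX5A had -0.32 ± 0.08 (adjusted p = 0.174), with no overlap between the ages in either gene. COX6A1, the form of its subunit that is found outside striated muscle as well, lay at 0.11. COX16, an assembly factor of complex IV outside the list, was among the 8 leading genes. It went from 8.52, 8.38, 8.67 and 8.75 to 8.09, 8.09, 7.72 and 7.77, a difference of -0.66 ± 0.12 (adjusted p = 0.108).

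Over the whole respiratory chain, 76 of 80 genes in the list had a probe set and 75 passed the filter on brightness. Of the 75, 73 had estimates below 0, 60 had unadjusted p under 0.05 in that direction and 41 (54.7%) did not overlap, against 4.87% and 2.73% of all probe sets. With 0 past an adjusted p of 0.05 and 5 past 0.10, no member was called. The median stayed below 0 on every scaling tried. It was -0.24 after quantile normalization, with 70 below 0. Without any scaling, which moved the median of all probe sets to 0.15, it was -0.19. Without the 30 day replicate 2 arrays of both genotypes the median was -0.33, with 73 below 0. Of the 75, 69 lie among the 1201 brightest probe sets, and the part of brightness in the result was not tested.

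**Figure D2:**
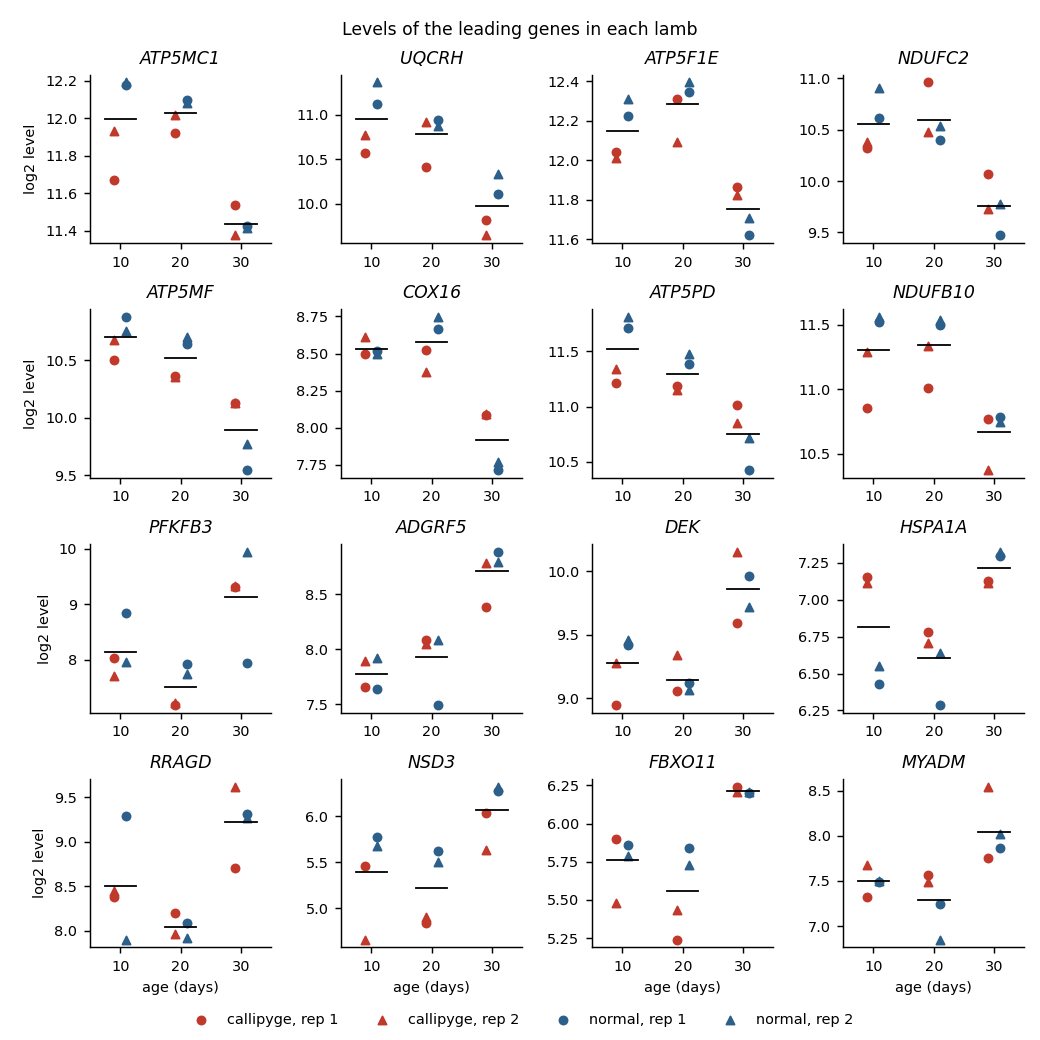
Level (log2 of scaled intensity plus 16) of the 8 leading genes on the lower side (upper 2 rows) and the 8 on the higher side (lower 2 rows) in each lamb at 10, 20 and 30 days, by genotype and replicate. Bars mark the mean of 4 lambs, and in all 16 genes the lambs of 30 days lie wholly on one side of those of 20 days. The genes were picked by their p for this same difference, which largely set that separation.

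The cytosolic ribosome had 61 tested genes of 79 in the list, and all 61 lay below 0, between -0.68 and -0.07. In 54 the unadjusted p was under 0.05, and 43 (70.5%) did not overlap between the ages, though none passed an adjusted p of 0.05. The shares of all probe sets were 4.87% and 2.73%, and 13.3% of the 1201 brightest lay wholly lower. The small subunit had a median of -0.40 over 23 genes and the large subunit -0.32 over 38. RPL8, a protein of the large subunit near its catalytic centre, read 12.08 and 12.04 in callipyge and 11.93 and 11.92 in normal lambs of 20 days. At 30 days it read 11.63 and 11.44, and 11.62 and 11.40. No lamb of 30 days reached the level of any lamb of 20 days, and the difference was -0.47 ± 0.09 (adjusted p = 0.110).

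RPL24, of the large subunit, went from 12.55, 12.59, 12.59 and 12.67 to 12.28, 12.10, 12.23 and 12.23, a difference of -0.39 ± 0.08 (adjusted p = 0.110). RPS3, at the mRNA entry of the small subunit, had -0.51 ± 0.11, and RPS15A had -0.48 ± 0.10 (both adjusted p = 0.110). In these 3 genes the ages again did not overlap. After quantile normalization the list median was -0.19, with 58 of 61 below 0, and with no scaling it was -0.20. In all, 59 of the 61 lie among the 1201 brightest probe sets. Many ribosomal protein genes have near-identical processed copies in mammalian genomes, so a probe set may not read its named gene alone.

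The mitochondrial ribosome, which translates the few proteins that mitochondria encode, is a dimmer list. Its median level was 7.53, against 11.60 for the cytosolic ribosome, and 6 of 63 tested genes lay among the 1201 brightest probe sets. Of the 63, 57 were below 0 with a median of -0.22, none past an adjusted p of 0.05. On the lower side 13 (20.6%, against 4.87% of all probe sets) had unadjusted p under 0.05. In 11 (17.5%, against 2.73% of all probe sets) the ages did not overlap. MRPL13 read 7.56 and 7.74 in callipyge and 7.90 and 7.71 in normal lambs of 20 days, and 7.09 and 7.26, and 7.06 and 7.27, at 30 days. It had the smallest p of the list, with a difference of -0.56 ± 0.14 (adjusted p = 0.174) and no overlap. MRPL48 had -0.49 ± 0.14, MRPL12 -0.51 ± 0.15 and MRPS14 -0.51 ± 0.15, with adjusted p from 0.233 to 0.279 and no overlap in any of the 3. Quantile normalization left the list median at -0.26, and with no scaling it was -0.09. Without both 30 day replicate 2 arrays it was -0.25, with 51 of 63 below 0.

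Other bright genes had smaller estimates. Among the 1201 brightest, 138 probe sets carried a gene of the respiratory chain or of either ribosome. Their median was -0.35, and 63% lay wholly lower at 30 days. The other 816 with a symbol had a median of -0.08, and 7.11% lay wholly lower. These are descriptions of probe sets in the same 8 lambs, and the difference between the groups was not tested.

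**Figure D3:**
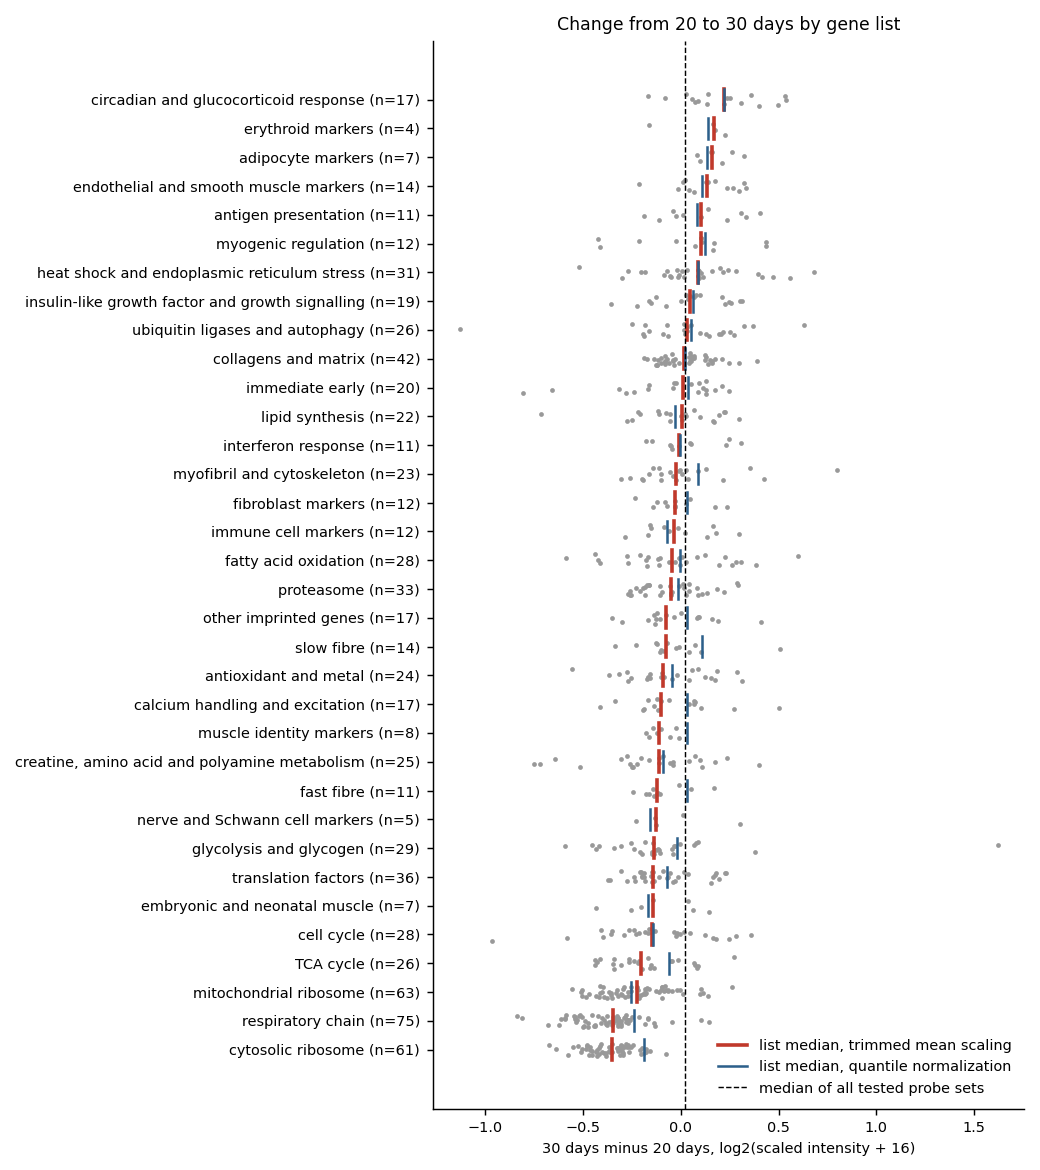
Difference between 30 and 20 days (horizontal axis, log2) for each tested member of 34 gene lists, with the list median under trimmed mean scaling in red and under quantile normalization in blue, and the median of all probe sets dashed. The cytosolic ribosome and respiratory chain lie lowest at -0.35, with -0.19 and -0.24 under quantile normalization, and circadian and glucocorticoid genes highest at 0.22.

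The TCA cycle, which feeds the respiratory chain with electrons, had 21 of 26 genes below 0 with a median of -0.21. In 2 genes (7.69%) the ages did not overlap, against 2.73% of all probe sets and 13.3% of the 1201 brightest, among which 20 of the 26 lie. SUCLA2, of succinyl-CoA synthetase, had -0.43 ± 0.13 (adjusted p = 0.289) and PDHB, of pyruvate dehydrogenase, -0.44 ± 0.14 (adjusted p = 0.303). After quantile normalization the median of the list was -0.06. Fatty acid oxidation had 17 of 28 below 0 and a median of -0.04, which was -0.004 after quantile normalization, 0.11 with no scaling and -0.13 without the 30 day replicate 2 arrays. ECI1 and HADH, both enzymes of beta-oxidation, had -0.59 ± 0.20 (adjusted p = 0.376) and -0.41 ± 0.13 (adjusted p = 0.319), and ACADS, the short-chain dehydrogenase, lay on the other side at 0.39 ± 0.15 (adjusted p = 0.465).

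Glycolysis and glycogen genes had 24 of 29 estimates below 0, with a median of -0.13 that became -0.02 after quantile normalization and 0.02 with no scaling. Within the list, members lay far apart. PGAM2, the muscle phosphoglycerate mutase, read 13.14 and 13.13 in callipyge and 12.86 and 13.11 in normal lambs of 20 days, and 12.80 and 12.81, and 12.55 and 12.40, at 30 days. The older lambs were all lower, by -0.42 ± 0.08 (adjusted p = 0.110). SLC16A3, which exports lactate, had -0.59 ± 0.14 (adjusted p = 0.158), and HK1, a hexokinase, -0.45 ± 0.15 (adjusted p = 0.375). The regulatory enzyme PFKFB3 lay opposite to them, at 1.62.

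PFKFB3 makes fructose 2,6-bisphosphate, an activator of phosphofructokinase. It read 7.18 and 7.21 in callipyge and 7.92 and 7.73 in normal lambs of 20 days. At 30 days it read 9.30 and 9.33 in callipyge lambs, and 7.95 and 9.94 in normal lambs. The groups did not overlap, but normal 30 day replicate 1 stood only just above the lambs of 20 days. The difference was 1.62 ± 0.33 (3.07-fold, adjusted p = 0.110). Without that lamb it was 2.12 with an adjusted p of 0.00295, and without normal 30 day replicate 2 it was 1.12 with an adjusted p of 0.103. A second probe set of the gene, dimmer at a mean level of 6.13, gave 0.21 (adjusted p = 0.893). At 10 days the first probe set read 8.04 and 7.71 in callipyge and 8.85 and 7.96 in normal lambs, above the 20 day mean of 7.51.

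The other genes that led the higher side have varied roles. RRAGD, a GTPase that relays amino acid supply to the growth kinase mTORC1, read 8.20 and 7.97 in callipyge and 8.09 and 7.92 in normal lambs of 20 days. It read 8.71 and 9.62, and 9.31 and 9.27, at 30 days. All 4 older lambs were higher, by 1.18 ± 0.26 (2.27-fold, adjusted p = 0.130). ADGRF5, an adhesion receptor known from endothelium and lung, went from 8.08, 8.05, 7.49 and 8.08 to 8.38, 8.79, 8.89 and 8.80, a difference of 0.79 ± 0.16 (adjusted p = 0.110). Endothelial and smooth muscle markers had a median of 0.13 between the ages, with 12 of 14 above 0. Of the 14, 0 had unadjusted p under 0.05, against 8.99% of all probe sets. The part of these markers in the ADGRF5 value was not tested. Without the 30 day replicate 2 arrays that median was 0.26. With all arrays it was -0.06 in callipyge and 0.39 in normal lambs, and ADGRF5 gave 0.52 and 1.06. DEK, a chromatin protein, had 0.71 ± 0.15 (adjusted p = 0.110), with 0.50 in its second probe set.

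HSPA1A encodes the stress-inducible chaperone HSP70. Its probe set of smallest p went from 6.78, 6.70, 6.29 and 6.64 to 7.13, 7.12, 7.30 and 7.33, a difference of 0.61 ± 0.13 (adjusted p = 0.130). The brightest of its 5 probe sets gave 0.68 (adjusted p = 0.181), and the other 3 gave -0.20, 0.15 and -0.01, and they thus disagreed. NSD3, a histone methyltransferase, had 0.85 ± 0.19 (adjusted p = 0.147), and its other 3 probe sets gave 0.25, 0.27 and 0.14. FBXO11, a ubiquitin ligase subunit, had 0.65 ± 0.15 (adjusted p = 0.153) with a tight range of 6.20 to 6.24 at 30 days. MYADM, a membrane protein, had 0.76 ± 0.18 (adjusted p = 0.158). All of these had ages that did not overlap in the probe set of smallest p, which was largely set by picking them by that p.

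Heat shock and endoplasmic reticulum stress genes as a list had 19 of 31 above 0 with a median of 0.09. On the higher side 4 of the 31 had unadjusted p under 0.05, against 4.12% of all probe sets. The median was 0.04 without the 30 day replicate 2 arrays. BAG3, the co-chaperone of HSP70, had 0.56 ± 0.15 (adjusted p = 0.215) and its partner HSPB8 0.39 ± 0.12 (adjusted p = 0.292), which was 0.22 without those arrays. DDIT4, an inhibitor of mTORC1, lay lower at -0.52 ± 0.16 (adjusted p = 0.306). Circadian and glucocorticoid response genes had 15 of 17 above 0 and the highest list median, 0.22. However, 0 of the 17 separated the ages, and 1 had unadjusted p under 0.05, against 4.12% of all probe sets on the higher side. That gene was NR1D1, a clock repressor, at 0.54 ± 0.21 (adjusted p = 0.450). The median was 0.22 after quantile normalization and 0.15 without the 30 day replicate 2 arrays.

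Contractile genes had small estimates. Fast fibre genes had 9 of 11 below 0 with a median of -0.12, which turned to 0.03 after quantile normalization and 0.04 with no scaling. Without the 30 day replicate 2 arrays it was -0.21. With all arrays 1 of 11 (9.09%) had unadjusted p under 0.05 on the lower side, against 4.87% of all probe sets. MYOZ1, a Z-disc protein of fast fibres, was the 1 that did not overlap, at -0.24 ± 0.09 (adjusted p = 0.421). Slow fibre genes had a median of -0.08, which turned to 0.11 after quantile normalization and 0.08 with no scaling. It was 0.22 in callipyge and -0.18 in normal lambs, and 3 of 14 had unadjusted p under 0.05 for that difference between the genotypes, against 4.61% of all probe sets, with no adjusted p below 0.989. Of the myogenic regulators, MYOD1 had 0.44 ± 0.16 (adjusted p = 0.439), while ID3 and ID1, which hold back myogenic factors, had -0.42 ± 0.18 (adjusted p = 0.505) and -0.41 ± 0.18 (adjusted p = 0.512). These 12 tested genes included 2 of unadjusted p under 0.05 on each side. Of all probe sets, 4.87% had such a p on the lower side and 4.12% on the higher.

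Translation factors had 27 of 36 below 0 with a median of -0.14, which was -0.18 without the 30 day replicate 2 arrays. On the lower side 4 (11.1%) had unadjusted p under 0.05, against 4.87% of all probe sets. The list was led by EEF1G, an elongation factor subunit, at -0.31 ± 0.08 (adjusted p = 0.191). Proteasome genes had 20 of 33 below 0, a median of -0.05 and 0 of unadjusted p under 0.05, against 8.99% of all probe sets. Without the 30 day replicate 2 arrays 25 were below 0 and the median was -0.10. In the list of ubiquitin ligases and autophagy genes, CTSD, the lysosomal protease cathepsin D, stood apart. It read 9.48 and 8.66 in callipyge and 9.30 and 8.11 in normal lambs of 20 days, and 8.05 and 7.95, and 7.17 and 7.87, at 30 days. The ages did not overlap, although the lambs within a group lay far apart, and the difference was -1.13 ± 0.30 (adjusted p = 0.215), with -1.07 in callipyge and -1.19 in normal lambs.

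Whether the genotypes differed in this interval was tested by the interaction. In callipyge lambs alone 0 of 12008 probe sets passed an adjusted p of 0.05 in limma, with 635 (5.29%) of unadjusted p under 0.05. In normal lambs alone it was 0, with 982 (8.18%), and for the interaction 0, with 554 (4.61%) and a smallest adjusted p of 0.989. Single lambs moved these unadjusted counts. In callipyge lambs it was 1054 without callipyge 30 day replicate 1, and in normal lambs 639 without normal 20 day replicate 2. For the interaction it was 848 without callipyge 30 day replicate 1. With 2 lambs in each group, this does not show that the genotypes changed alike. Of the 75 respiratory chain genes, 69 lay below 0 in both genotypes, as did all 61 of the cytosolic ribosome and 42 of 63 of the mitochondrial ribosome, against 24.4% of all probe sets. The median in callipyge was -0.30, -0.37 and -0.13 for these lists and in normal lambs -0.42, -0.37 and -0.35. The estimate was lower in normal than in callipyge lambs for 56 of 75, 32 of 61 and 50 of 63 genes, against 46.9% of all probe sets, and 5, 1 and 5 had unadjusted p under 0.05 for the interaction.

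**Figure D4:**
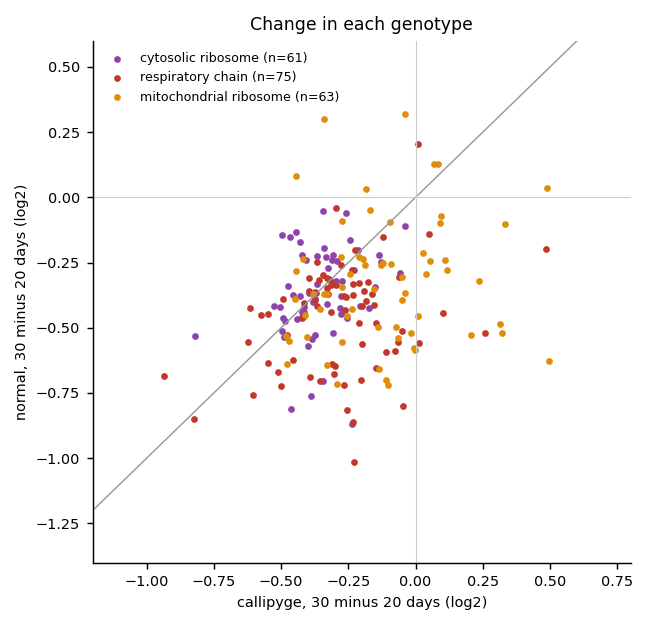
Difference between 30 and 20 days in callipyge lambs (horizontal axis, log2, 2 lambs against 2) and in normal lambs (vertical axis) for the tested genes of 3 lists, with the line of equal change. All 61 cytosolic ribosome genes, 69 of 75 respiratory chain genes and 42 of 63 mitochondrial ribosome genes lie below 0 in both.

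In callipyge lambs the smallest p on the lower side belonged to UQCRH (-0.94, adjusted p = 0.798), GIGYF1, a translational repressor (-1.08, adjusted p = 0.798), and TIMM9, a chaperone of mitochondrial protein import (-1.01, adjusted p = 0.803). XRCC6, a DNA end-binding protein (1.04), PFKFB3 (2.12) and FBXO11 (0.89) led the higher side, each with adjusted p = 0.803. In normal lambs ATP5MF, ATP5PD and TTYH1, a membrane channel protein known from the nervous system (-1.62), had an adjusted p of 0.138 on the lower side. On the higher side were USP28, a deubiquitinating enzyme (1.11, adjusted p = 0.222), C29H11orf86 (1.18) and ADGRF5 (1.06, both adjusted p = 0.245). The second probe set of USP28 gave 0.64 in normal lambs.

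For the interaction, which is the callipyge difference minus the normal one, the immediate early transcription factor EGR1 had 2.96 ± 0.61 (adjusted p = 0.989). It read 6.98 and 6.92 in callipyge lambs of 20 days and 8.90 and 7.40 at 30 days, while normal lambs read 9.24 and 8.13, then 7.06 and 6.80. FOS, which responds to many of the same stimuli, gave 1.83 in callipyge and -3.15 in normal lambs, and its callipyge lambs of 20 days lay as far apart as 6.81 and 10.68. OLFM1, a secreted glycoprotein, had 2.55 ± 0.50 and its other probe sets 1.94 and 1.36. NIPSNAP1, a mitochondrial protein, had 1.82 ± 0.41. On the other side were SFXN1, a mitochondrial serine carrier, at -1.16 ± 0.29, GIGYF1 at -1.16 ± 0.31 and DNAJB12 at -1.27 ± 0.35. Other probe sets gave -0.86 and -0.05 for SFXN1, and 0.47 and -0.14 for DNAJB12, the last from its brightest, at a mean level of 8.39. The named probe sets of OLFM1, NIPSNAP1, SFXN1, GIGYF1 and DNAJB12 were dim. Their mean levels were 5.31 to 6.01, beside the brightness limit of 5.25. Each gene picked by the interaction had an adjusted p of 0.989 in its probe set of smallest p.

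The callipyge mutation lies in an imprinted gene cluster, from which DLK1, a growth-related membrane protein, is expressed off the father's copy and the non-coding RNA MEG3 off the mother's. DLK1 read 10.95 and 11.17 in callipyge lambs of 20 days and 11.14 and 10.98 at 30 days. Normal lambs read 8.48 and 8.45, then 8.61 and 7.67. The ages overlapped within each genotype, and the mean difference was -0.16 ± 0.18 (adjusted p = 0.867), which was 0.11 without the 30 day replicate 2 arrays, with 0.00 in callipyge lambs and 0.09 in the gene's second probe set. MEG3 read 10.43 and 10.83 in callipyge lambs of 20 days and 9.40 and 8.44 at 30 days, and in normal lambs 7.63 and 7.30, then 7.20 and 7.03. Its difference of -1.03 ± 0.39 (adjusted p = 0.447) was made up of -1.71 in callipyge and -0.35 in normal lambs (interaction -1.36 ± 0.78, adjusted p = 0.989). Its 4 dimmer probe sets gave -0.41, -0.57, -0.08 and -0.39. Without the 30 day replicate 2 arrays the brightest gave -0.74 and the dimmer ones -0.16, -0.23, 0.31 and -0.46. WARS1, a tRNA synthetase gene next to the cluster, had 0.38 ± 0.18 (adjusted p = 0.562; 0.21 without those arrays) in its brightest probe set and -0.09, 0.39 and -0.04 in the others.

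Level of a whole list in a lamb is given as the median over its genes of the deviation from the mean of the 8 arrays. For the respiratory chain this was 0.06 and 0.15 in callipyge and 0.18 and 0.33 in normal lambs of 20 days. It was -0.07 and -0.29, and -0.23 and -0.15, at 30 days. All lambs of 20 days lay above all lambs of 30 days, and callipyge 30 day replicate 1 was the closest to the younger lambs. In the cytosolic ribosome the values were 0.13, 0.17, 0.18 and 0.24 at 20 days and -0.10, -0.29, -0.17 and -0.12 at 30 days. The mitochondrial ribosome had 0.09, 0.06, 0.14 and 0.26, then -0.10, -0.06, -0.13 and -0.20. Both ribosome lists also separated the ages. TCA cycle genes did not, since callipyge 20 day replicate 1 at -0.04 lay below callipyge 30 day replicate 1 at -0.02 and normal 30 day replicate 2 at 0.01.

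At 10 days, on the same scale, the respiratory chain stood at 0.01 and 0.15 in callipyge and 0.36 and 0.46 in normal lambs. The cytosolic ribosome stood at 0.21 and 0.17, and 0.37 and 0.24. From 10 to 20 days the list medians of the gene differences were -0.07 for the respiratory chain, -0.07 for the cytosolic ribosome and -0.04 for the mitochondrial ribosome, beside -0.35, -0.35 and -0.22 from 20 to 30 days. Both intervals use the 20 day arrays, so the values are set side by side only. For single genes the 10 day means were 11.99 ± 0.24 (SD, n = 4) for ATP5MC1, 10.56 ± 0.26 for NDUFC2 and 11.31 ± 0.33 for NDUFB10. The 20 day means were 12.03 ± 0.08, 10.60 ± 0.25 and 11.35 ± 0.24, each within 1 SD of the 10 day mean. UQCRH stood at 10.96 ± 0.35 at 10 days, ATP5F1E at 12.15 ± 0.14, ATP5MF at 10.70 ± 0.16, ATP5PD at 11.52 ± 0.29 and COX16 at 8.53 ± 0.06. In the same order their 20 day means were 10.78, 12.28, 10.51, 11.30 and 8.58. Of these, only ATP5MF lay more than 1 SD from its 10 day mean. All 8 of the 10 day means lay above the 30 day means. On the higher side the 10 day means were 8.51 ± 0.58 for RRAGD, 7.78 ± 0.15 for ADGRF5, 9.28 ± 0.23 for DEK, 6.81 ± 0.37 for HSPA1A, 5.39 ± 0.51 for NSD3, 5.76 ± 0.19 for FBXO11 and 7.50 ± 0.14 for MYADM, each below its 30 day mean. The genes of both sides were picked by their change from 20 to 30 days. The side on which a 10 day mean lay from its 30 day mean was therefore partly set by that choice.

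**Figure D5:**
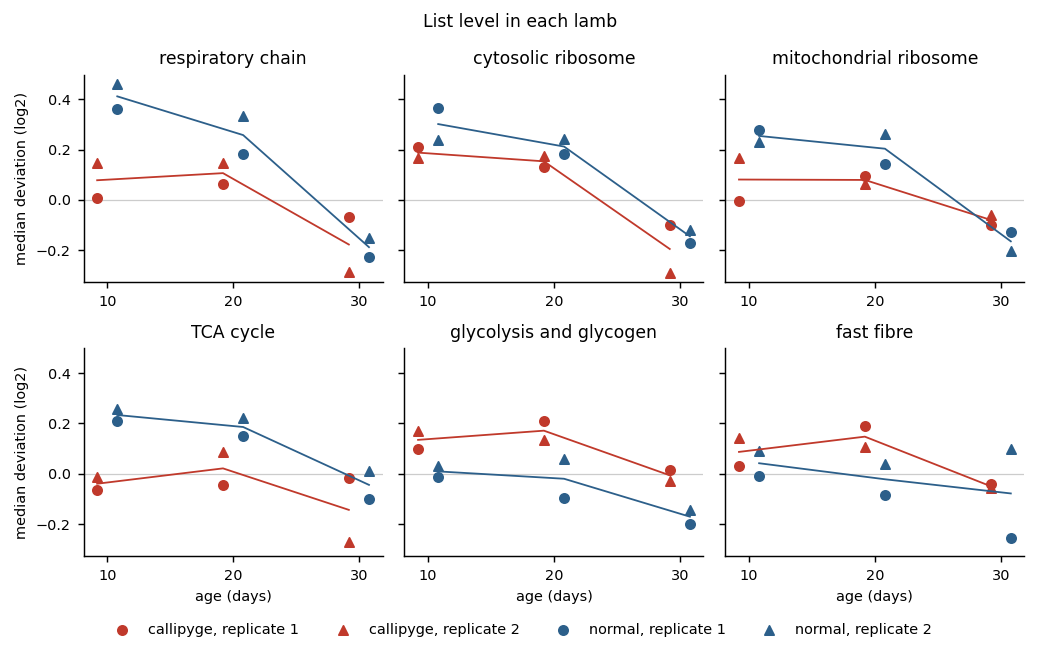
Median deviation of a list's genes from the mean of the 20 and 30 day arrays (vertical axis, log2) in each lamb at 10, 20 and 30 days, by genotype and replicate, with lines through the mean of 2 lambs. For the respiratory chain and both ribosomes all 4 lambs of 30 days lie below 0 and below all 4 of 20 days, while fast fibre genes overlap between the ages.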

How the data were processed

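Total RNA of longissimus dorsi was hybridised, 1 lamb per array, to Affymetrix bovine arrays, so cattle probes read sheep RNA. The deposited values are linear intensities made with MAS5 in GCOS, per the submitters' processing notes; versions and scaling target are not given in the sources used here. There were 24128 probe sets with 0 missing values, of which 112 were controls and were dropped. Because trimmed means (2% left out at each end) differed 1.90-fold, all arrays were brought to their average of 79.2, and log2(value + 16) was taken. Probe sets with a mean below the median of 5.25 were left out, which left 12008. The array annotation gave 13292 of 24016 probe sets 1 symbol, 86 several and 10638 none, and 12310 carried a symbol found in the sheep RefSeq annotation ARS-UI_Ramb_v3.0. Detection calls were not used here. Precision is limited by how few arrays there are.

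limma 3.58.1 in R 4.3.3 fitted a mean for each of the 6 groups over all 12 arrays, with variances shared along a trend with brightness (6 residual and 6.93 prior degrees of freedom) and Benjamini-Hochberg adjustment over all tested probe sets (threshold 0.05). The fit was tested on simulated data. Array measures were compared by exact permutation of ages within genotype. Figures used matplotlib 3.10.9 in python 3.11.15.

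Fewer than 5 named genes passed in each direction, so the rule took the 8 of smallest p per direction. For each genotype and the interaction it took the 3 of smallest p per direction, for each of 35 lists up to 4 members, and the genes of the callipyge locus. A gene with several probe sets is given by that of smallest p, within a list by its brightest. The comparison, members and lists were chosen with earlier results of these data known. Alternatives covered pseudocounts of 1 and 64, filters, scalings, variance models, a threshold of 0.10, only the 8 arrays, a replicate block, and leaving out each array or both 30 day replicate 2 arrays.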

Additional observations from a re-analysis of the deposited data

Results flagged for a closer look

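In 10 of 124 sets of 4 lambs of 1 age, a lamb lay far from the other 3 by Dixon's gap criterion, with callipyge and normal lambs pooled. Chance alone flags about 1 set in 20, and no cause was tested.

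Among the leading genes, UQCRH at 20 days was 10.41 in callipyge replicate 1, against 10.87 to 10.94 in the others. NDUFB10 at 30 days was 10.37 in callipyge replicate 2, against 10.74 to 10.78. ADGRF5 at 20 days was 7.49 in normal replicate 1, against 8.05 to 8.08. FBXO11 at 30 days was 6.24 in callipyge replicate 1, against 6.20 to 6.21, a gap of little size.

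The mean level of erythroid markers at 20 days was 6.81 in normal replicate 1, against 6.12 to 6.20 in the others. The same lamb had the highest median deviation of nerve and Schwann cell markers at 20 days, 0.32 against -0.12 to -0.07, and the lowest of translation factors, 0.0064 against 0.06 to 0.07. Heat shock and endoplasmic reticulum stress genes at 20 days stood at -0.17 in normal replicate 2, against 0.07 to 0.08. Lipid synthesis genes at 30 days stood at 0.17 in normal replicate 1, against -0.07 to -0.03. Creatine, amino acid and polyamine genes at 30 days stood at -0.23 in callipyge replicate 2, against -0.01 to 0.00.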

How the results depend on the processing

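The count of 1 probe set past the threshold for the change from 20 to 30 days became 0 with a pseudocount of 1, no filter, quantile normalization, array weights, only the 8 arrays, the replicate block, and without both 30 day replicate 2 arrays. It became 6 with no scaling, 2 by least squares without shared variance and 8 at a threshold of 0.10. Leaving out 1 array gave 0 to 1, with the 1, PFKFB3, only without normal 30 day replicate 1. The count of 0 in callipyge became 3 with no scaling and 1 with a pseudocount of 64, a filter at the 75th percentile, median centring or the threshold of 0.10, and 0 to 1 with 1 array left out (1 without normal 30 day replicate 1 or 2). In normal lambs it became 1 with a pseudocount of 1 or least squares, and 0 to 1 with 1 array left out (1 without normal 30 day replicate 1). For the interaction it became 3 with no scaling and 0 to 2 with 1 array left out (2 without callipyge 20 day replicate 2). With 1 array left out, the counts of unadjusted p under 0.05 ran from 777 to 1185 for the change, 501 to 1054 in callipyge, 639 to 1097 in normal lambs and 442 to 848 for the interaction. Causes were not tested. A group left with 1 lamb is assumed to vary like the others.

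All 16 leading genes kept their direction wherever they were tested. COX16 passed by least squares (adjusted p = 0.0277), PFKFB3 with no scaling (0.0128) and without normal 30 day replicate 1, and 5 genes at the threshold of 0.10. List medians kept their sign in 27 of 35 lists under quantile normalization and in 20 with no scaling. Replicate numbers did not pair the lambs: the differences between replicates correlated by -0.06 to 0.11 between groups, over 0.1 in 1 of 15 pairs. The replicate block changed no call of a named gene.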

Other observations

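Some genes of other lists showed differences that the account above does not cover. BCKDHB, of the complex that breaks down branched-chain amino acids, read 8.41 and 8.40 in callipyge and 8.63 and 8.59 in normal lambs of 20 days, and 8.21 and 7.44, and 8.01 and 7.78, at 30 days. The ages did not overlap, and the difference was log2 -0.64 ± 0.17 (SE, limma adjusted p = 0.215), which was -0.39 without both 30 day replicate 2 arrays. GPT, which moves amino groups between alanine and glutamate, had -0.72 ± 0.20 (adjusted p = 0.259), with the lowest value, 7.04, in callipyge 30 day replicate 2. It was -0.35 without those arrays. TXN2, the mitochondrial thioredoxin, had -0.55 ± 0.16 (adjusted p = 0.256) with no overlap between the ages. PLIN2, a lipid droplet coat protein, had -0.72 ± 0.19 (adjusted p = 0.219) at levels near the brightness limit.

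Collagens and matrix genes had 21 of 42 below 0 and a median of 0.02. On the higher side 1 of the 42 had unadjusted p under 0.05, against 4.12% of all probe sets. That gene was TIMP3, an inhibitor of matrix proteases, at 0.39 ± 0.15 (adjusted p = 0.464). Without both 30 day replicate 2 arrays 7 were below 0 and the median was 0.26, and with 1 array left out the median ran from -0.14 to 0.14. Cell cycle genes had 20 of 28 below 0 and a median of -0.15, led by CKS1B, a cofactor of cyclin-dependent kinases, at -0.96 ± 0.35 (adjusted p = 0.417). Without both 30 day replicate 2 arrays the cell cycle median was 0.07 and CKS1B was at -0.61. Genes of insulin-like growth factor signalling had 13 of 19 above 0. Of the 19, 0 had unadjusted p under 0.05, against 8.99% of all probe sets, and IGF1 itself was at 0.30 ± 0.17 (adjusted p = 0.650).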
